A study of Mus musculus with 6 samples.

Results

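The regions described here are the places inside protein-coding genes where peaks of YBX1 chromatin immunoprecipitation recurred between replicates and had no other peak nearby. The cells were untreated BaF3, a mouse pro-B cell line, with the activating kinase mutation JAK2 V617F. All 6 libraries came from this line: 3 immunoprecipitates with an antibody to YBX1 and 3 inputs, sequenced without antibody selection and numbered 1 to 3 like the immunoprecipitates. The sources used here name no wild-type BaF3 cells, no control antibody and no cells lacking YBX1, and do not say whether the replicates were separate cultures, so spreads between them may be technical. Peaks had been called by the authors on each immunoprecipitate against the input of its number, which gives list 1, list 2 and list 3, with positions on GRCm38.

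YBX1 is a Y-box protein. Its cold shock domain binds single-stranded and double-stranded nucleic acid, it was first described as a factor that binds the CCAAT-containing Y-box of promoters, and most of its known work is on RNA, in splicing, translation and mRNA storage. Signal inside genes and away from their ends can lie on introns or exons, which the gene spans used here do not tell apart.

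The lists were merged at an overlap of 1 bp into 8156 regions. Peaks of 2 or 3 lists were present in 3048, or 37.4%. In 2923 of these every peak had a pileup of at least 80, the pileup being the number of extended sequence tags over the peak's summit. Removing regions with a peak that had the same length, summit offset and pileup as another row of its list left 2045. Of these, 846 had no other merged region within 10 kb, and 188 of the 846 had their midpoint inside a protein-coding gene. The 178 that were also more than 5 kb from any end of a protein-coding gene are called members below, which is 2.18% of the merged regions. The members were chosen by the presence of peaks in several lists, their pileups and their positions, so values from these peaks are given as a description and not tested.

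Every member lay where the input itself was high. The fold, the authors' ratio of pileup to the local input level that the caller set against it, had member medians of 2.05, 1.83 and 1.89 in the order of the lists, with a mean of 1.92 ± 0.111 (SD, n = 3 lists). The pileup had medians of 181.5, 164 and 181.6 tags. The local input at the same summits was 21.3, 21.7 and 22.6 times the genome-wide level at the median, or 21.9 ± 0.701 (SD, n = 3 lists). Its lowest values were 6.62, 8.71 and 7.18 times, and its highest 48.1, 51.3 and 48.3 times. None of the 178 had a local input under 5 times the genome-wide level in any list, and 94 had at least 20 times in every list that held them. All peaks of lists 1, 2 and 3 had median local inputs of 28.2, 26.4 and 25.2 times, above those of members. Regions outside genes that passed the same filters had 21.8, 23.8 and 21.4 times, so high input was not particular to members.

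A fold of 2 or more was reached by 52.3% of members in list 1, 32.1% in list 2 and 41.1% in list 3, beside 33.7%, 28.9% and 32.6% of all peaks of these lists and 47.2%, 28.2% and 36.4% of regions outside genes that passed the same filters. A fold of 3 or more was reached by 5.75%, 0.763% and 2.05% of members, and by 3.66%, 4.60% and 4.07% of all peaks, so the order turned in lists 2 and 3. The member shares there stand for 1 of 131 and 3 of 146. Same-filter regions outside genes had 4.54%, 0.887% and 1.55%, so this turn was not particular to members. In 46 members, or 25.8%, every peak had a fold of 2 or more. Pileup and local input rose together across members, with Spearman's rho of 0.873 in list 1 (n = 174), 0.914 in list 2 (n = 131) and 0.898 in list 3 (n = 146). Fold and local input ran in opposite directions, with rho of -0.701, -0.692 and -0.768. Both relations are across regions of the same pair of libraries, and fold is computed from pileup and local input, so they are descriptions. The pileup could not exceed 320 tags before scaling, because the caller kept 1 tag per position and strand, and this bounds the fold where input is high. The highest pileups among members were 290, 300 and 274.8.

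**Figure D1:**
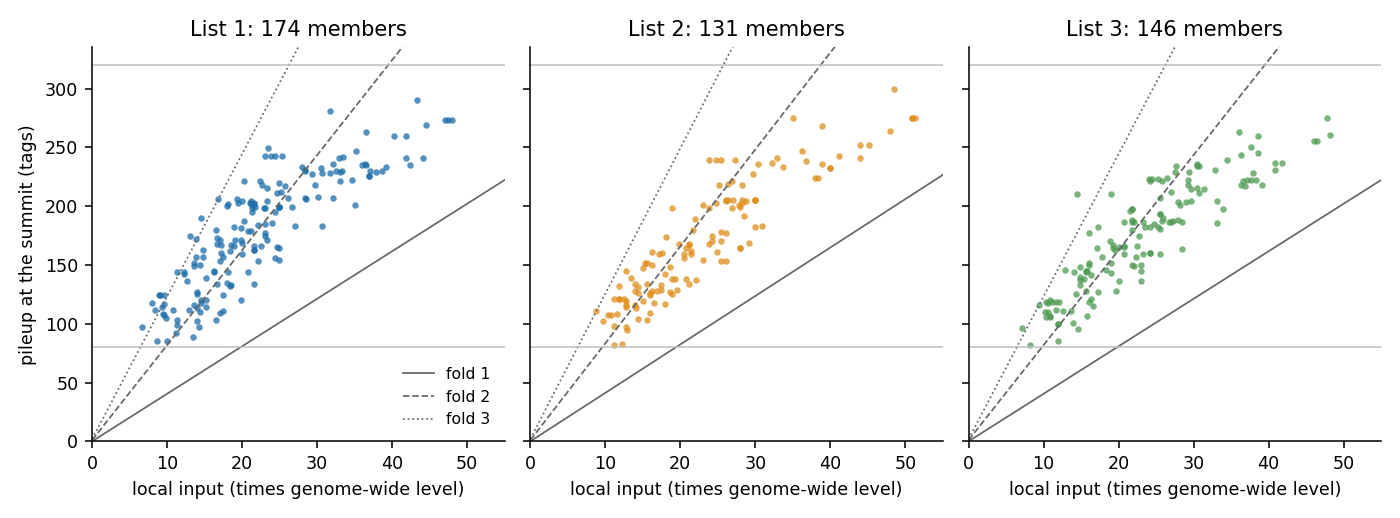
Pileup at the summit (tags) against local input (times the genome-wide level) for each member, with 1 panel for each list; sloping lines mark folds of 1, 2 and 3 and the grey horizontal lines the pileup minimum of 80 and the ceiling of 320. Every member lies to the right of 5 times the genome-wide input, and folds near 3 are found at the left end of the range.

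Among the 95 members found in all 3 lists, the one whose lowest fold was largest lay in Arhgap24, which encodes a GTPase-activating protein for RAC. It spans bases 102408927 to 102409719 of chromosome 5, 202.1 kb from the nearest gene end. Its pileups were 117, 121 and 118.2 tags and its folds 2.97, 2.59 and 2.77 in lists 1, 2 and 3. The local input was 9.57, 11.2 and 10.4 times the genome-wide level, and the 3 summits fell on the same base. The lists thus differed little at this region, in height and in place.

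In Csmd1, which encodes a large transmembrane protein with CUB and sushi domains, bases 16793028 to 16793417 of chromosome 8 showed pileups of 190, 198 and 182.6 and folds of 3.19, 2.53 and 2.59. In the netrin receptor gene Dcc, at 71631262 to 71631684 on chromosome 18, the pileups were 124, 121 and 118.2 and the folds 3.38, 2.47 and 2.48. List 1 had the highest fold at both, over local inputs of 14.6 and 8.89 times the genome-wide level. In Gabrb1, a subunit gene of the GABA-A receptor, bases 71832104 to 71832289 of chromosome 5 gave folds of 2.45, 2.27 and 2.29. The region in Ctnna3, which encodes alpha-T-catenin, lay at 63723614 to 63723986 on chromosome 10 and had folds of 2.59, 2.43 and 2.24. These last 2 regions had local inputs of 23.1 to 25.4 times the genome-wide level and pileups up to 243, so they were far higher in both libraries than the Arhgap24 region.

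Other members of this rank lay in genes with varied products. Fancc, for a subunit of the Fanconi anaemia core complex, held one at 63437717 to 63437922 on chromosome 13, with folds of 2.78, 2.39 and 2.78. Ptpn4, a tyrosine phosphatase gene, held one at 119744337 to 119744639 on chromosome 1, with folds of 2.60, 3.04 and 2.37. Ptpn4 and Catspere1, which encodes a subunit of the sperm calcium channel CatSper and had folds of 2.55, 2.74 and 2.50, were the only 2 of these 15 members with the highest fold in list 2. The aminopeptidase gene Lnpep held a region at 17554929 to 17555346 on chromosome 17 whose folds were 3.31, 2.47 and 2.59. The engulfment adaptor gene Gulp1, at 44692948 to 44693346 on chromosome 1, reached folds of 3.59, 2.25 and 3.01, the first being the highest fold of any member in list 1. Gulp1 also had the widest difference in fold between lists, although its pileups were 118, 108 and 116.3. Its local input was 7.95, 11.5 and 9.402 times the genome-wide level, so the input differed more than the immunoprecipitate. The same 3 pileups were found at a region on chromosome 2. A region on chromosome 11 had the same pileup and fold in lists 1 and 3, so the fold of 3.59 is not particular to Gulp1. In Zeb1, the gene of a transcriptional repressor, at 5751776 to 5752445 on chromosome 18, the folds were 2.22, 2.22 and 2.21, the closest agreement among these members. The others of the 15 were in 4930512M02Rik, the zinc finger gene Zfp654, the cell polarity gene Pard3b and the axonemal dynein gene Dnah5, with folds from 2.25 to 3.26.

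Of the 83 members found in 2 lists, list 2 lacked 47, list 3 lacked 32 and list 1 lacked 4. The 5 with the largest lowest fold were all absent from list 2. The first of these was in Lepr, the leptin receptor gene, whose product belongs to the cytokine receptors that signal through JAK2. It lay at 101759464 to 101759874 on chromosome 4, and its pileups were 97 in list 1 and 96.1 in list 3, with folds of 3.53 and 3.24. Its local input, 6.62 and 7.18 times the genome-wide level, was the lowest of all members in both lists. The same pileup and fold, in both lists, were found at regions on chromosomes 12 and 3 that have identical rows, so the Lepr values are not particular to this place. After Lepr, the lowest mean input over the lists was at the members in Erbb4, Gulp1, Ptpn4 and 4930512M02Rik, where single lists had 7.95 to 11.5 times. In Map2, for a microtubule-associated protein of dendrites, bases 66277114 to 66277471 of chromosome 1 reached folds of 3.00 and 3.57 and pileups of 206 and 210.4. The region in Snapc3, for a subunit of the complex that activates small nuclear RNA genes, had folds of 2.55 and 2.69. Those in the retinoic acid receptor gene Rarb and in Veph1 had folds of 2.53 and 2.69, and of 2.78 and 2.48. Peaks not called have no value in these lists, so how far list 2 fell short at these regions is not known.

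**Figure D2:**
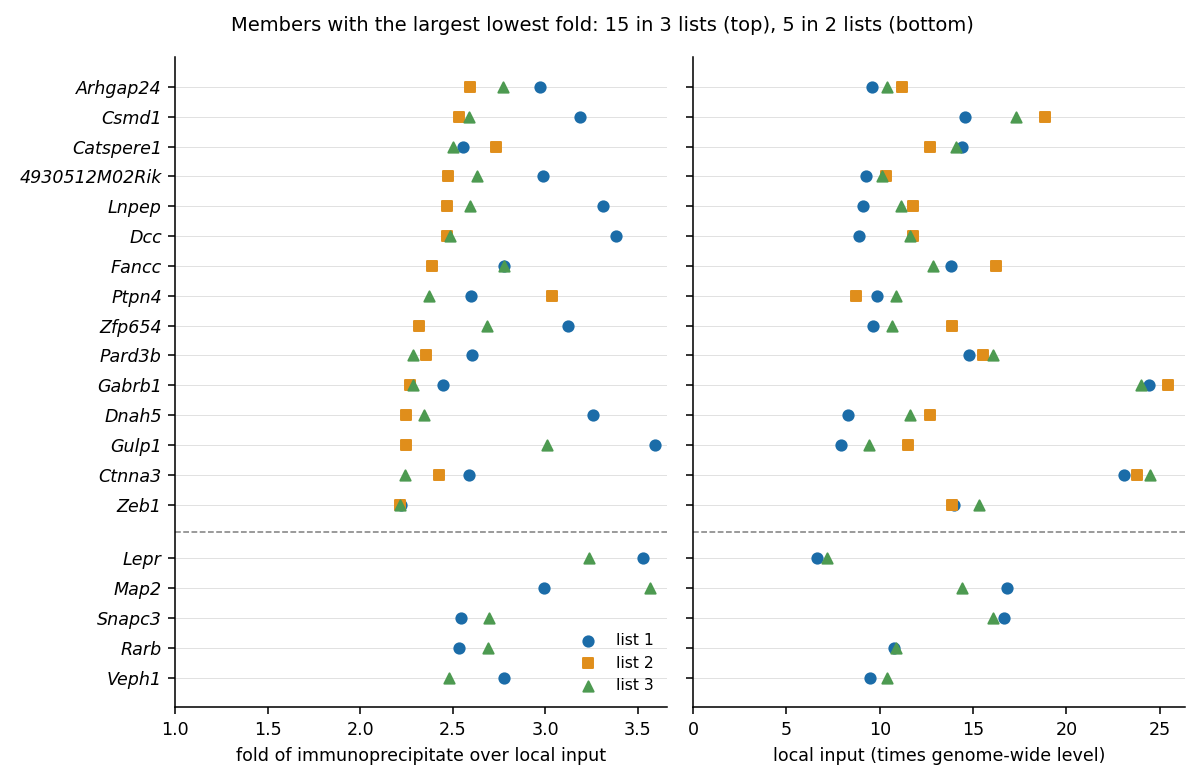
Fold over local input (left) and local input in multiples of the genome-wide level (right) for the 15 members in 3 lists and the 5 in 2 lists with the largest lowest fold; each point is a peak of 1 list. List 1 holds the highest fold in most of the upper 15, Zeb1 has nearly equal folds, and the Lepr region has the lowest input.

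Pileups at a member differed less between lists than local inputs or folds did. Over the 95 members in all lists, the coefficient of variation of the pileup between lists had a median of 3.81%, with quartiles of 2.64% and 4.98%. Poisson counting alone gives 7.61% at their median pileup of 172.8 tags. Same-filter regions outside genes had a median of 3.47%. The rule used the pileups, with a minimum of 80, and the caller kept 1 tag per position and strand, with a ceiling of 320 tags. The spread is therefore a description and not a measure of how well the replicates agree. Why it was below the Poisson value was not tested. For the local input of the 95 members the median was 9.13%, and for their fold 9.41%. The fold was highest in list 1 at 69 of the 95 members and in list 2 at 10, while the local input was lowest in list 1 at 63 and in list 2 at 9. The scaling of the input also differed between lists, by 0.765 in list 1, 0.970 in list 2 and 1 in list 3, and its part in the order of folds was not tested. Spearman's rho between lists 1 and 2 was 0.950 for pileup and 0.727 for fold (n = 127), across regions that share their libraries.

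Summits also fell close together. The median distance from list 1 was 3 bp for list 2 (n = 127) and 3 bp for list 3 (n = 142), while lists 2 and 3 differed by 4 bp (n = 99). In 109 of the 178 members, or 61.2%, all summits lay within 10 bp, and in 32, or 18%, they shared a base. For regions outside genes that passed the same filters these shares were 61.7% and 11.3%. In 26 members the summits were more than 100 bp apart. The widest was Nlgn1, a synaptic adhesion gene, at 26112718 to 26113310 on chromosome 3, with summits up to 436 bp apart. Its pileup was 180 in list 1 but 98 and 109.5 in lists 2 and 3. In Grik1, a kainate receptor gene, the summits were up to 418 bp apart and the pileups were 203, 129 and 186.4. At both genes the region holds more than one summit position, and the pileups compared there are not of the same base.

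**Figure D3:**
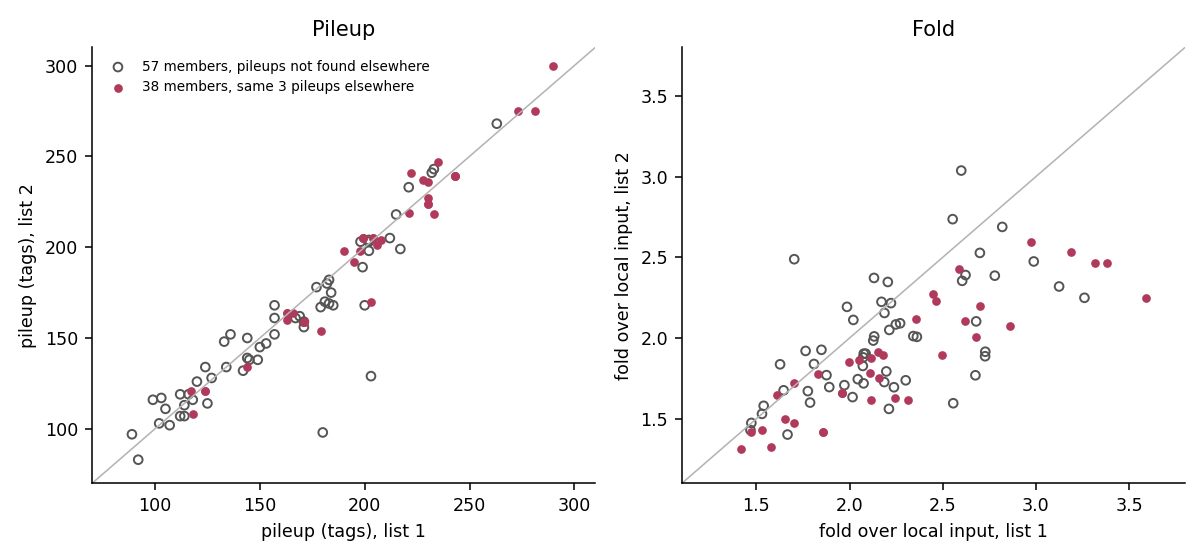
Pileup in tags (left) and fold over local input (right) in list 1 against list 2 for the 95 members in all lists; filled points are the 38 members whose 3 pileups are found unchanged at another region, and the line marks equal values. Pileups follow the line except at Nlgn1 and Grik1, which lie below it at 180 and 203 tags in list 1, and most folds lie on the side of list 1.

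The rule removed regions with identical rows, but many members still had the values of another region. Of the 95 members in 3 lists, 38, or 40%, had exactly the same pileup in list 1, in list 2 and in list 3 as at least 1 other merged region. Among all 1291 regions in 3 lists the share was 61.3%, identical rows included, and among the 306 same-filter regions outside genes it was 44.8%. The 38 members belonged to 31 sets of equal pileups with 148 regions in all, and every set was spread over more than 1 chromosome. They passed the filter on identical rows because their peak length or summit offset differed.

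The regions in Gabrb1, Ctnna3 and Sema3c, a semaphorin gene, all had pileups of 243, 239 and 222.9 tags. They belonged to a set of 16 regions on several chromosomes, of which these 3 were the members. Lnpep and Dcc, on chromosomes 17 and 18, shared pileups of 124, 121 and 118.2 with 4 other regions, and the Csmd1 region named above shared its 3 pileups with 5. The region in the diacylglycerol kinase gene Dgkb on chromosome 12 and the one in the chromatin remodeller gene Smarca1 on chromosome X had equal pileups of 163, 164 and 160.5 and equal folds of 1.86, 1.42 and 1.63. Fut8, the gene of a fucosyltransferase, and Aff2 shared 204, 205 and 187.4, while their folds in list 1 were 2.50 and 2.16. Cntnap5a and Akap9 shared 171, 159 and 159.5. The largest set, at 199, 205 and 186.4 tags, had 28 regions and included the members in Golga3, a golgin gene, and in the predicted gene Gm7995. The region in Arhgap24 shared its pileups with 1 region on chromosome 13.

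Equality of both pileup and fold in at least 2 lists was a different match, which members in 2 lists can also meet. It was found with another region for 32 members, or 18.0% (95% Wilson interval 13.0 to 24.3). All shared regions had it in 44% of cases, identical rows included, and same-filter regions outside genes in 20% (17.1 to 23.3). All 32 had a matching region on another chromosome, and for 16 it was a region with identical rows. By either kind of match, 49 of 178 members, or 27.5%, had equal values elsewhere. Members with equal pileups had a higher median local input, 23.1, 27.7 and 24.9 times the genome-wide level in lists 1, 2 and 3, than the 57 members in 3 lists without them, at 18.0, 19.3 and 19.1. Their median folds were 2.14, 1.82 and 1.89 against 2.17, 1.92 and 1.91. All of them stay in the counts below as separate members, and whether they are independent positions was not tested.

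The members fell in 174 protein-coding genes, or 0.799% of the 21775 in the annotation and 1.26% of the 13771 that have positions more than 5 kb from any gene end. Host genes were long, with a median span of 248.9 kb and a minimum of 15.2 kb, where genes with such positions had a median of 33.7 kb. A long gene offers more positions to the rule, so members were counted per length of eligible sequence, meaning positions inside a gene and past the limit from gene ends. Genes of 10 to 50 kb held 13.0 members per 100 Mb (95% Poisson interval 7.46 to 21.2), and genes of 50 to 100 kb held 15.6 (9.89 to 23.4). The values were 19.8 (13.8 to 27.5) at 100 to 200 kb, 21.8 (16.1 to 28.9) at 200 to 500 kb and 30.0 (22.7 to 39.0) over 500 kb. The intervals of the shortest and the longest class do not overlap, and those of neighbouring classes do. These intervals cover counting error only and treat members as independent.

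The ratio of the longest to the shortest class was 2.30 (exact binomial interval 1.30 to 4.29). It was 3.43 (1.66 to 7.96) without regions that have an equal region and 2.53 (1.39 to 4.94) with a pileup of at least 100. It was 1.62 (0.904 to 3.04) without replicate 1 and 1.60 (0.834 to 3.22) without replicate 3, and 1.77 (0.832 to 4.11) with peaks of all 3 files, intervals that include 1. With no isolation limit it was 1.41 (1.01 to 2.00). Positions deep inside a gene exist only in long genes, and members were also denser there. At 5 to 10 kb from a gene end there were 13.5 members per 100 Mb (7.72 to 21.9), and at more than 200 kb there were 34.2 (23.6 to 48.1). Gene length and distance from a gene end cannot be told apart in these counts.

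Isolated shared regions outside genes that passed the same filters numbered 639. They had 43.3 regions per 100 Mb (40 to 46.8), against 20.8 (17.9 to 24.1) for members, a ratio of 0.482 (0.406 to 0.570). Members were the sparser set in all 6 classes of distance from a gene end. At 25 to 50 kb the densities were 19.5 (13.4 to 27.4) inside and 45.3 (36.3 to 55.9) outside. At more than 200 kb they were 34.2 and 50.3 (44.4 to 56.8), and at 5 to 10 kb they were 13.5 and 31.3 (21.5 to 44), and in both of these classes the intervals overlap. Assembly gaps count as sequence outside genes, and base composition, repeats and local input were not matched. These intervals, too, cover counting error only and treat regions as independent. That shared regions were sparser inside genes was already known when the members were chosen, so the ratio is a description.

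**Figure D4:**
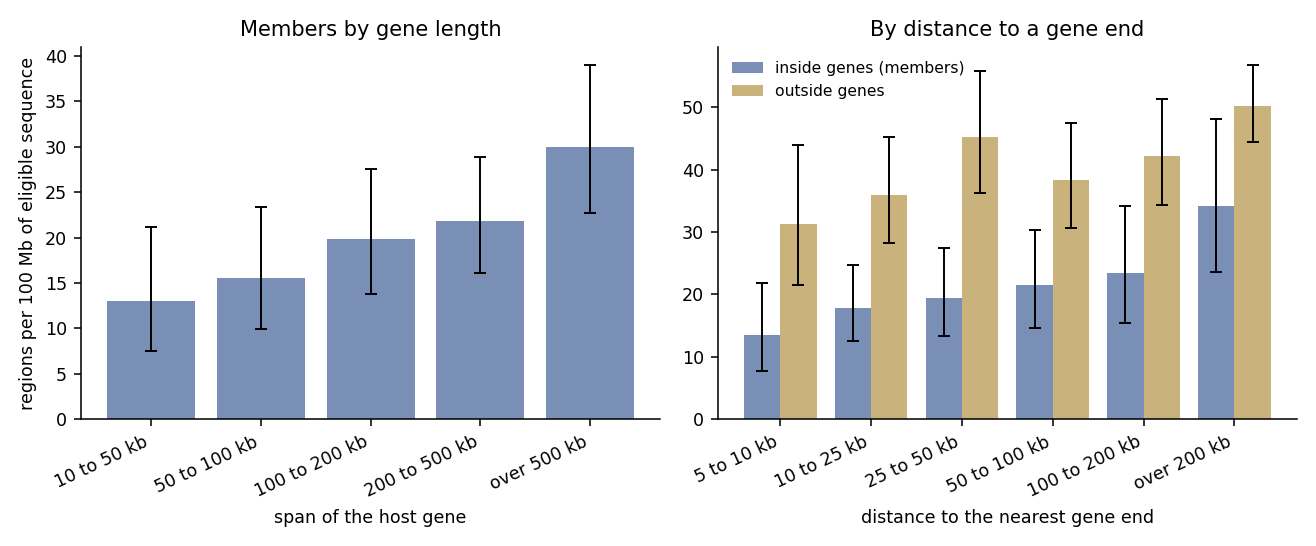
Regions per 100 Mb of eligible sequence by span of the host gene for members (left), and by distance to the nearest protein-coding gene end for members and for same-filter regions outside genes (right); bars start at 0 and error bars are 95% Poisson intervals, for counting error only. Member density runs from 13.0 in genes of 10 to 50 kb to 30.0 in genes over 500 kb, and stays below that outside genes in every distance class.

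The same filters had been applied to members and to regions outside genes, so their values are set side by side without a test. The median fold of members exceeded that of outside regions by 0.0810 in list 1, 0.0566 in list 2 and 0.0172 in list 3, a mean of 0.0516 ± 0.0322 (SD, n = 3 lists). With replicate 1 left out the mean was 0.0207 ± 0.0738 (SD over the remaining lists), a spread larger than the difference. The median local input of members minus that outside was -0.473, -2.12 and 1.24 times the genome-wide level, with no common direction. Member peaks were wider, by 26.5, 19 and 23.5 bp at the median. Members were in all 3 lists in 53.4% of cases (95% Wilson interval 46.0 to 60.6) and outside regions in 47.9% (44.0 to 51.8). The highest folds belonged to regions outside genes, at up to 7.21 in list 1 against 3.59 for members.

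Members were found along the whole of their genes. For the 137 whose host gene has a strand in the RefSeq promoter table, 4 equal stretches from start to end held 31, 43, 36 and 27. The last stretch had 19.7% (95% Wilson interval 13.9 to 27.2) and the one with most members 31.4% (24.2 to 39.6), so their intervals overlap. None of the 178 overlapped a window of the RefSeq promoter table, beside 10 of all 8156 merged regions. The limit of 5 kb from gene ends keeps members off windows at these ends in advance, so this absence says nothing about members. None overlapped a microRNA, and 2 overlapped a long noncoding RNA gene, Gm51644 in Srgap2 and Gm41313 in Angpt1. The nearest start in the RefSeq promoter table was a median of 59 kb away (n = 172). That table lacks the starts of some host genes, so a nearer start can be missing from it. For the member in Jph1, a gene of 155.8 kb, the nearest start listed was 1192.5 kb away. The closest in that table was a start of Fut8, 0.9 kb from the midpoint of the Fut8 member, followed by that of Aen at 4.9 kb.

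More than one member was held by 7 genes, which were Csmd1, Etl4, Fbxl17, Morc1, Nckap5, Pard3b and Ryr3, with 2 each. In Csmd1 the other member, at 17341045 to 17341215 on chromosome 8, had folds of 1.81 in list 1 and 1.96 in list 3, well under those of the one described above. In Nckap5 folds were 2.00 and 2.08 at the region starting at 126628181 and 3.09 and 2.27 at that starting at 126669600, with no peak in list 2 at either. In Fbxl17, for an F-box protein, both members had high local input, 43.3 to 50.8 times the genome-wide level, and folds from 1.31 to 1.65. The calcium release channel gene Ryr3, the germ cell gene Morc1, Pard3b and Etl4 had lowest folds from 1.30 to 2.29. The folds of the pair were unlike in Csmd1 and close in Morc1, where the pileups in list 1 were 179 and 227.

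The host genes were counted in 10 gene lists, without a test. Of 84 long neuronal adhesion and synaptic genes, 25 held a member, or 29.8%, with a median span of 1021 kb in the list. Of all 226 genes over 500 kb, 23.5% held one. Among genes of that length, those on the list had 28.8 members per 100 Mb and the others 30.5, a small difference that was not tested. The longest hosts were Ptprd, a receptor tyrosine phosphatase gene of 2270.5 kb, the cell adhesion gene Lsamp of 2197 kb and the lipoprotein receptor gene Lrp1b of 2058 kb, with lowest folds of 2.12, 1.43 and 1.64. Other hosts from this list, with their lowest fold, were the neuregulin receptor gene Erbb4 at 2.07, the netrin receptor gene Unc5c at 2.06, the neurexin gene Nrxn3 at 1.70, the scaffold gene Dlg2 at 1.64, the cadherin genes Cdh12 and Cdh13 at 1.57 and 1.33, and the glutamate receptor gene Grm8 at 1.61. The region in Fgf14, for an intracellular fibroblast growth factor family member, had folds of 2.70, 2.20 and 2.36, and the one in Cntnap4 had 2.68, 2.01 and 2.24. Auts2, Grid1, Fgf13, Opcml, Pcdh11x, Ptprt and Tenm3 had lowest folds from 1.43 to 2.05. By either kind of match described above, the members in Auts2, Cdh13, Cntnap4, Dlg2, Fgf13, Fgf14, Grm8 and Lsamp also had equal values elsewhere. Their pileups are therefore not particular to these genes.

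The lists for the JAK2 and ERK pathways named in the study's title are read beside the 1.26% of all genes with eligible positions that held a member. Of 29 JAK-STAT components with eligible positions 1 held a member, Stam, an adaptor in endosomal sorting, at 14085469 to 14085780 on chromosome 2, its folds being 1.81, 1.84 and 1.61. Of 36 cytokine and growth factor receptor genes only Lepr did, so these lists had shares of 3.45% and 2.78% from 1 gene each, and of 39 RAS-ERK-MNK components 0 did. The initiator caspase gene Casp8 was the 1 host among 26 apoptosis regulators, at 58812255 to 58812582 on chromosome 1, where list 1 had no peak and the folds of lists 2 and 3 were 2.20 and 2.19. Fancc was the 1 host among 61 DNA repair genes. None of the 58 splicing factor genes, 23 reported Y-box or CCAAT target genes, 23 B lineage genes and 7 genes of Y-box and cold shock proteins held one. These lists have between 0.164 and 5.33 Mb of eligible sequence, where the overall density of 20.8 per 100 Mb gives few members or none, so neither their presence nor their absence sets these lists apart.

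At the pileup limit, the 3 members just inside were in Erbb4, with pileups of 85 and 81.7 and none in list 2, in the integrin gene Itgb5, with 85 and 82 and none in list 3, and in Spock3, with 92, 83 and 85.5. Just outside were regions in Herc2, at 89 and 78.8, in Macrod2, at 74 and 74.96, and in Camk1d, at 77 and 74, each with no peak in list 2. In all, 17 regions met every part of the rule except this limit.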

How the data were processed

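YBX1 immunoprecipitates and inputs, 3 each, were grouped and numbered by their titles. Per the submitters' processing notes, Trim Galore did the trimming and MACS2 the peak calling, on GRCm38; the aligner is not given in the sources used here. Per the file headers, MACS 2.1.1.20160309 called peaks per replicate with no model, an extension of 160 bp, a q threshold of 0.01 and 1 tag kept per position and strand, with the larger library scaled down. After that filter the immunoprecipitates held 67.0 to 69.7 M tags and the inputs 67.0 to 87.6 M, and the lists 7053, 2628 and 2827 peaks. The pileup is a signal in tags deposited by the authors, the fold a ratio by the authors of that pileup over local input, 1 being added to each, and the −log10 p and −log10 q values the deposited output of the caller.

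Local input was solved from pileup and fold and divided by kept tags times extension over a genome size of 2652783500. Recomputed −log10 p differed from the deposited values by a median of 9.42e-05, 8.38e-05 and 0.000467. Where a list had several peaks in a region, the one with the highest pileup was used. Genes were RefSeq spans of GRCm38.p6, without entries starting below 3 Mb on chromosomes other than Y. No genome sequence was used, so motifs, base composition and exons were not analysed here. Densities have exact Poisson intervals. Permutation tests over lists had been planned for fold and local input against regions outside genes; they are not given, since these values come from the peaks that chose the members and 3 lists allow no p below 0.25. The rule was tested on simulated regions. Named regions were the 15 members in 3 lists and the 5 in 2 lists with the largest lowest fold, the 5 with the lowest local input, those in listed genes, in genes with several members and in the 3 longest hosts, 3 on each side of the pileup limit, and the 3 with the widest fold difference. Regions in sets of equal pileups and those near a start were added after their values were seen. Members and lists were chosen with earlier results of these data known, and the sparseness of shared regions inside genes was among these. Analyses used Python 3.11.15, pandas 2.3.3 and scipy 1.17.1.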

Additional observations from a re-analysis of the deposited data

How the results depend on the processing

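No paired analysis was possible because the authors set each immunoprecipitate against the input of its number when calling peaks, so the calls are already paired and there is no unpaired fit to set beside them. Of 132 alternative values of 11 results, 113 neither reversed nor passed the limit for a change, which was 1.5 times for counts, the main interval for density ratios, the sign for differences and 1 SD for medians. These limits are wide: with identical rows kept there were 242 members, and the ratio of the longest to the shortest gene class ran from 1.41 to 3.43. The difference in fold from outside regions fell from 0.0516 to 0.0207 without replicate 1, with an SD of 0.0738. It was 0.0278, with an SD of 0.0383, when every −log10 q was 5 or more. At both settings the SD over the lists exceeded the difference, although its sign was kept. The 178 members in 174 genes became 95 in 96 genes when peaks of all 3 files were asked for, and 432 in 362 genes with no isolation limit. Without 1 replicate in turn there were 138 to 148 members in 137 to 147 genes. Hosts in the gene lists numbered 29, or 16 with peaks of all 3 files. The mean median local input, 21.9 times the genome-wide level, was 22.7 with a pileup of at least 100, 21.0 with no pileup minimum, 20.5 without regions that have an equal region (an alternative added after seeing the data) and 21.3 to 24.1 without 1 replicate. The mean of the median summit distances, 3.33 bp, was 2.67 with a pileup of at least 100 and 1.33 when every −log10 q was 5 or more. The median host span, 248.9 kb, was 203.2 kb with no isolation limit and 221.0 to 267.5 kb without 1 replicate. The difference in local input from regions outside genes, -0.451, turned to 0.0672 with no pileup minimum, 0.122 with a gene end limit of 10 kb, 0.177 when every −log10 q was 5 or more and 0.423 without equal regions, and ran from -2.12 to 0.789 without 1 replicate. The cause of these changes was not tested. Depth per region is limited by the ceiling of 320 tags.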

Other observations

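Members were found on every chromosome except Y. That chromosome had only 1.37 Mb of eligible sequence, with a 95% Poisson interval of 0 to 270 members per 100 Mb, so the absence says little. Chromosome 16 had 14 members, or 41.4 per 100 Mb of eligible sequence (95% Poisson interval 22.6 to 69.5), among them those in Lsamp, Grik1, Morc1, Itgb5 and Zfp654. Chromosome X had 14, or 36.8 (20.1 to 61.8), and chromosome 19 had 1, in Sorcs1, or 4.48 (0.113 to 24.9). Same-filter regions outside genes had 51.4, 56.8 and 19.5 per 100 Mb on chromosomes 16, X and 19, against 43.3 over all chromosomes. High values on 16 and X and a low one on 19 were thus not particular to members. Chromosomes 7 and 11 differed, with 11.3 and 11.6 for members but 58.4 and 58.2 outside. The member intervals of most chromosomes overlap, and the chromosomes were singled out after their values were seen. Chromosome copy number in this line was not analysed here.

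The members in Tfap2d, a transcription factor gene, and Sema3e, a semaphorin gene, were next to Gulp1 in their difference between lists. The Tfap2d region had folds of 2.62, 2.39 and 1.46, with pileups of 136, 152 and 136.5 and a local input of 12.7, 15.3 and 23.0 times the genome-wide level in lists 1, 2 and 3. The Sema3e region had folds of 3.04 and 1.92 in lists 1 and 2, with pileups of 172 and 142.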
